A study of Mus musculus with 143 samples.

Results

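AY036118, Gm42418, CT010467.1 and Gm26917 are 4 mouse loci that collect reads resembling ribosomal RNA (rRNA). They were chosen by name, for high counts, from the 55573 gene IDs of the single-oocyte poly(A) count files and the 55487 gene IDs of the RiboMinus count files. The poly(A) files hold all 4 loci (Ensembl IDs ENSMUSG00000105361 for AY036118, ENSMUSG00000098178 for Gm42418, ENSMUSG00000106106 for CT010467.1 and ENSMUSG00000097971 for Gm26917). The RiboMinus files hold counts for CT010467.1 alone of these loci, so the other 3 have no values in that assay. Because high counts chose the loci, their levels are given as a description with no test, and only the contrasts of genotype and stage are tested.

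The study compared mouse oocytes of control females with oocytes of mutant females made by CRISPR/Cas9, with genotypes labelled Dis3 cKO, Exosc10 cKO and dcKO (both genes). The conditional alleles, the Cre driver, the strain and the age of the adults are not given in the sources used here. Poly(A) libraries of single oocytes came from fully grown oocytes with an intact germinal vesicle (GV; 8 control and 15 Dis3 cKO oocytes), oocytes kept in culture for 3 h (GV3h; 8 and 16) and metaphase II eggs of superovulated females (MII; 8 and 16). GV and GV3h oocytes were held in M2 medium. RiboMinus libraries of single oocytes, primed with random hexamers after removal of ribosomal RNA, came from adult GV oocytes (8 control, 8 Dis3 cKO) and from oocytes labelled p20 (8 each of control, Dis3 cKO, Exosc10 cKO and dcKO). The label p20 is read here as postnatal day 20. Chromatin was profiled in pooled oocytes by CUT&Tag, which cuts DNA where an antibody is bound, in 21 peak lists: the repressive histone mark H3K27me3 in 4 groups and RNA polymerase II (Pol II) in 3 groups of 3. The labels do not say which oocytes came from the same female, so p-values measure the spread between oocytes.

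In the nucleus the RNases DIS3 and EXOSC10 act within the exosome, a complex that trims the ends of rRNA precursors and degrades the spacers cut out of them. The large cytoplasmic rRNAs are cut from a precursor that RNA polymerase I (Pol I) transcribes from many tandem gene copies, while 5S rRNA is made by another polymerase and mitochondrial rRNA in the mitochondria. Mature cytoplasmic rRNAs carry no poly(A) tail, so selection on oligo-dT beads is meant to leave them out. Growing mouse oocytes make and store ribosomes, and Pol I transcription winds down as growth ends. Loci in the reference genome that carry rRNA-related sequence can receive reads from the repeated rRNA genes, and in count tables they appear as ordinary genes.

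Positions were known for 2 of the 4 loci from the RefSeq annotation of GRCm38.p6 (the assembly released as mm10, the build named in the submitters' processing notes). Gm42418 is a synonym of Rn18s-rs5, a pseudogene related to the small-subunit rRNA, at chr17:39846354-39848202 (1849 bases). AY036118 is annotated as a long noncoding RNA on the minus strand at chr17:39848112-39898385, a span of 50274 bases. The ends of both genes overlap by 91 bases. The start of AY036118 lies at the far side of its span from Gm42418. Its start window is shown because it is the part of the locus that would carry a promoter of its own (GRCm38.p6, chr17:39898336-39898635, minus strand, 250 bases before the start in lower case and the first 50 bases after it in capitals):
AY036118: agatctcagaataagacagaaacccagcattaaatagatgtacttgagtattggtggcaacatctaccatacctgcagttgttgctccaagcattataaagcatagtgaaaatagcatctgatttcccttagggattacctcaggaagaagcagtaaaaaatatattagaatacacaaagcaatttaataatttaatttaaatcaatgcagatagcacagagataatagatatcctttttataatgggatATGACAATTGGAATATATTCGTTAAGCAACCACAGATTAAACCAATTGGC
This window had a GC content of 32.7% and 1 CG dinucleotide, against medians of 52.7% and 7 over the 32851 RefSeq start windows of the same length. The letters TATAAA matched 1 time on the strand shown and 1 time on the other. Of all start windows, 13.6% hold TATAAA on either strand. A peak overlapped this window in 0 of the 21 peak lists.

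In the poly(A) libraries, 3 of the 4 loci were the genes with the highest mean CPM (counts per 1000000 gene counts). CT010467.1 ranked 1st with a mean of 12792 CPM over 71 libraries, Gm42418 ranked 2nd with 8298 CPM and AY036118 3rd with 7721 CPM. These counts are not divided by gene length, so the ranks order the reads collected and not transcript levels. Together the 3 loci held between 1.02% and 5.60% of all gene counts of a library (median 2.71%). Gm26917 went against its description as a locus of high counts: it ranked 651st with a mean of 284 CPM and had 0 counts in 11 of 71 libraries. In the RiboMinus libraries CT010467.1 ranked 69th with a mean of 1079 CPM.

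Poly(A) libraries held 4844000 to 15412000 gene counts each, and RiboMinus libraries 8492100 to 35429000. Synthetic ERCC RNAs, added in equal amount to each poly(A) lysate, gave 34158 to 585340 and 7089 to 192790 counts, and gene counts per ERCC count had medians of 138 in GV controls, 104 in GV Dis3 cKO, 154 and 139 at GV3h, and 45.6 and 53.3 at MII. In RiboMinus libraries these medians were 397 in adult controls, 238 in adult Dis3 cKO and 1069 to 1307 in the p20 groups. The labels list the ERCC mix for these libraries too, but whether adult and p20 lysates received equal amounts is not stated, and this bears on each RiboMinus value per ERCC count. The knocked-out gene was low where its label says: mean Dis3 was 13.4 against 3.15 CPM at GV, 13.6 against 2.47 at GV3h and 8.16 against 0.680 at MII. In RiboMinus libraries mean Dis3 was 14.9 against 1.85 CPM in adults and 13.1 against 1.99 in p20 Dis3 cKO, and mean Exosc10 was 113 CPM in p20 controls, 3.11 in Exosc10 cKO and 7.84 in dcKO, where Dis3 was at 3.10. The 10 oocyte markers summed to 3945 to 23034 CPM in poly(A) and 6490 to 17786 CPM in RiboMinus libraries. The 8 granulosa or cumulus cell markers summed to at most 137 CPM. Their summed level was lower in Dis3 cKO at each poly(A) stage (mean 47.4 against 84.8 CPM at GV, 31.9 against 54.4 at GV3h, 34.3 against 73.2 at MII), and their part in the results was not tested. The 5 blood and stroma markers summed to at most 5.90 CPM. MII Dis3 cKO oocyte 15 stood apart, with 14.4 gene counts per ERCC count, and its AY036118 level of 96.5 counts per 1000 ERCC counts was the lowest of all libraries.

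At the GV stage, loss of Dis3 went with a larger share of poly(A) reads at the 3 high loci. AY036118 had a lowest, median and highest level of 2662, 5292 and 9069 CPM in the 8 control oocytes and of 4604, 9231 and 15140 CPM in the 15 Dis3 cKO oocytes. The groups overlapped, with 8 of 15 Dis3 cKO oocytes above the highest control and 14 of 15 above the control mean. With edgeR's quasi-likelihood test on counts scaled by trimmed mean of M values (TMM), AY036118 was higher by 0.72 on the log2 scale (SE 0.18, adjusted p = 0.00189), a fold of 1.645. Gm42418 ran from 2860 to 9835 CPM in controls (median 5698) and from 4933 to 16138 CPM in Dis3 cKO (median 9866), a log2 difference of 0.71 (edgeR adjusted p = 0.00208). CT010467.1 had medians of 9461 and 15336 CPM and a log2 difference of 0.61 (edgeR adjusted p = 0.00571). In this contrast 13.6% of the 17389 genes tested were called higher and 8.33% lower, and the median gene differed by 0.04 (log2).

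After 3 h in culture the direction was the opposite. AY036118 had a lowest, median and highest level of 5623, 7186 and 8078 CPM in control GV3h oocytes and of 3612, 5530 and 8874 CPM in Dis3 cKO. Of the 16 Dis3 cKO oocytes, 8 lay below the lowest control and 1 lay above the highest. AY036118 was lower by edgeR, with a log2 difference of -0.46 (SE 0.17, adjusted p = 0.0282), and Gm42418 and CT010467.1 were lower with -0.44 and -0.43 (edgeR adjusted p = 0.0332 and 0.0312). Called lower in this contrast were 15.7% of all genes tested, and 22.9% were called higher. With total gene counts in place of TMM scaling the 3 differences were smaller and not called (AY036118 -0.32, edgeR adjusted p = 0.122).

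MII eggs gave the same sign. AY036118 ran from 7340 to 15371 CPM in 8 control eggs (median 10080) and from 5238 to 11767 CPM in 16 Dis3 cKO eggs (median 8248), with 5 of 16 below the lowest control and 13 of 16 below the control mean. The log2 differences were -0.42 for AY036118, -0.43 for Gm42418 and -0.44 for CT010467.1 (edgeR adjusted p = 0.0403, 0.0378 and 0.0253). The share of all genes called lower was 14.8% and the share called higher was 27.3%, and the median gene was 0.16 higher (log2). The MII calls rested on single libraries. Without control egg 1 the log2 difference of AY036118 was -0.32 (edgeR adjusted p = 0.150), without Dis3 cKO egg 4 it was -0.39 (adjusted p = 0.0606), and without Dis3 cKO egg 15 it was -0.41 (adjusted p = 0.0506). Leaving out control egg 1 also ended the calls of Gm42418 (-0.32) and CT010467.1 (-0.36), and total gene counts in place of TMM gave -0.34 for AY036118 (adjusted p = 0.0910).

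The Dis3 effects per gene count differed between stages by a test of the difference. The Dis3 effect at GV3h minus that at GV was -1.18 (log2, SE 0.25) for AY036118, -1.15 for Gm42418 and -1.04 for CT010467.1 (edgeR interaction term, adjusted p = 0.00538, 0.00596 and 0.00975). The effect at MII minus that at GV was -1.14, -1.13 and -1.05 (edgeR adjusted p = 0.000777, 0.000791 and 0.00118). Interaction terms were called lower for 0.667% of genes at GV3h and 3.88% at MII, and higher for 1.37% and 9.28%. Both interactions use the same GV libraries.

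**Figure D1:**
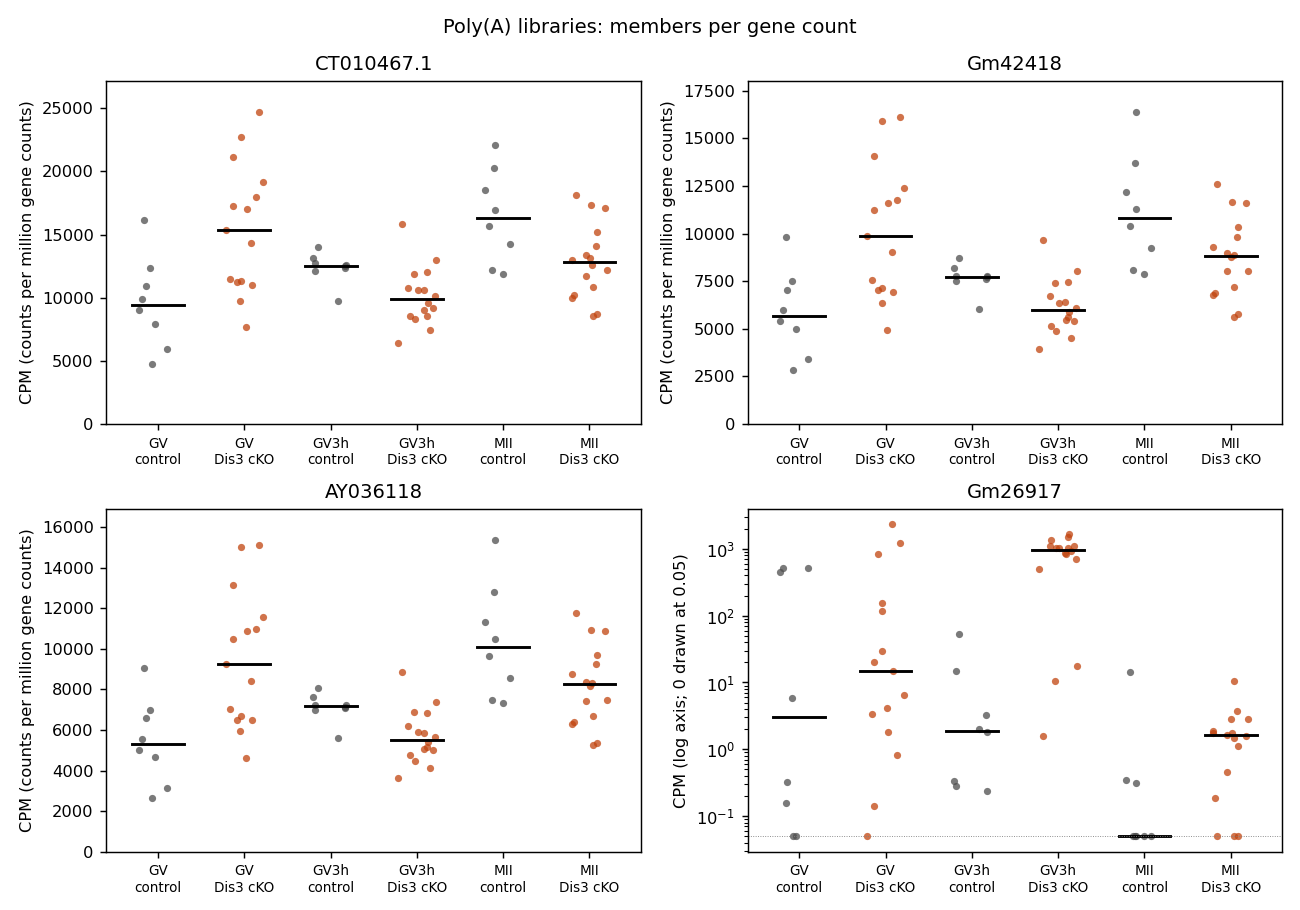
CPM of CT010467.1, Gm42418, AY036118 and Gm26917 in 71 single-oocyte poly(A) libraries, by stage and genotype (points are libraries, bars are group medians; the Gm26917 axis is logarithmic with 0 drawn at 0.05 CPM). The 3 high loci share 1 pattern, with the Dis3 cKO median above control at GV and below it at GV3h and MII. For Gm26917, 48 libraries lie under 20 CPM, 21 at 100 CPM or more and 2 between.

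Among the 6 poly(A) groups the mean AY036118 level ran from 5462 ± 2094 CPM in GV control (SD, n = 8) through 5699 ± 1331 in GV3h Dis3 cKO (n = 16), 7129 ± 703 in GV3h control (n = 8), 8189 ± 1967 in MII Dis3 cKO (n = 16) and 9477 ± 3326 in GV Dis3 cKO (n = 15) to 10383 ± 2752 in MII control (n = 8). The ranges of each neighbouring pair in this order overlapped. GV3h controls were the tightest group. Their 8 oocytes spanned 5623 to 8078 CPM, inside the 2662 to 9069 CPM spanned by GV controls.

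Per ERCC count, the GV difference did not pass the threshold. AY036118 had a lowest, median and highest value of 339, 693 and 1214 counts per 1000 ERCC counts in GV controls and of 479, 1019 and 1835 in GV Dis3 cKO, with 4 of 15 above the highest control. The log2 difference was 0.43 (SE 0.21, edgeR adjusted p = 0.144), while the median gene was 0.23 lower on this scale (-0.23). Gm42418 and CT010467.1 differed by 0.42 and 0.32 (edgeR adjusted p = 0.153 and 0.280). Called higher on this scale were 7.27% of genes.

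At GV3h the lower level in Dis3 cKO held per ERCC count. AY036118 ran from 820 to 1687 counts per 1000 ERCC counts in controls (median 1099) and from 449 to 1022 in Dis3 cKO (median 818), with 9 of 16 below the lowest control and 16 of 16 below the control mean. The log2 difference was -0.53 for AY036118, -0.52 for Gm42418 and -0.50 for CT010467.1 (edgeR adjusted p = 0.0400, 0.0453 and 0.0494), against 10.6% of genes called lower and a median of 0.04 over all genes. A 2-sided exact permutation test of AY036118 on the log2 scale gave an unadjusted p = 0.000753. The edgeR call was lost without control oocyte 6 (-0.44, adjusted p = 0.123) and without Dis3 cKO oocyte 7 (-0.49, adjusted p = 0.0620), and the same 2 libraries decided the calls of Gm42418 and CT010467.1.

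At MII no difference between the genotypes was called per ERCC count. AY036118 had medians of 450 counts per 1000 ERCC counts in controls and 461 in Dis3 cKO, a log2 difference of -0.08 with an SE of 0.21 (edgeR adjusted p = 0.789), where the median gene was 0.52 higher in Dis3 cKO. The difference of Gm42418 was -0.08 and that of CT010467.1 was -0.09 (edgeR adjusted p = 0.783 and 0.756), against 4.31% of genes called lower. Neither interaction of the 3 loci passed the threshold per ERCC count (AY036118 -0.96 at GV3h minus GV, edgeR adjusted p = 0.0779, and -0.51 at MII minus GV, adjusted p = 0.178), where 0.138% and 0.696% of genes were called lower.

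**Figure D2:**
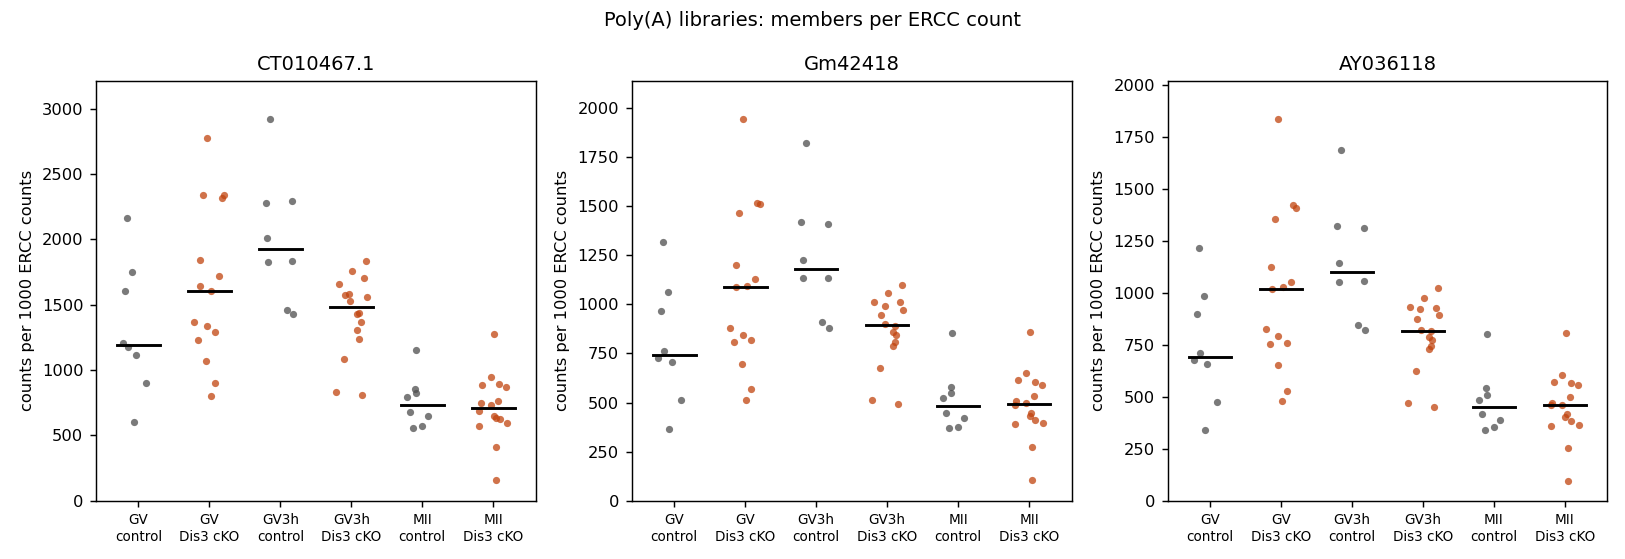
Counts per 1000 ERCC counts of CT010467.1, Gm42418 and AY036118 in the same 71 poly(A) libraries by stage and genotype (points are libraries, bars are group medians). AY036118 medians are 693 and 1019 at GV, 1099 and 818 at GV3h and 450 and 461 at MII for control and Dis3 cKO, and the MII medians are the lowest of each panel.

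Maturation of control oocytes to MII moved AY036118, Gm42418 and CT010467.1 in opposite directions on the 2 scales. In controls AY036118 was 2.31-fold higher per gene count in MII eggs than in GV oocytes (log2 1.21, SE 0.20, edgeR adjusted p = 5.14e-07), with Gm42418 at 1.20 and CT010467.1 at 1.06. Called higher in this contrast were 22.7% of genes, and 35.8% were called lower. Per ERCC count AY036118 was lower by 0.63 (log2 -0.63, edgeR adjusted p = 0.0122), Gm42418 by 0.64 (-0.64) and CT010467.1 by 0.79 (-0.79), where 87.5% of genes were called lower and the median gene stood at -2.12. With ERCC counts scaled by TMM the AY036118 difference was -0.34 and was not called (edgeR adjusted p = 0.180). In Dis3 cKO the MII and GV levels per gene count differed by 0.07 for AY036118 (edgeR adjusted p = 0.703, with 24.8% of genes called higher), and per ERCC count by -1.14 (adjusted p = 1.67e-08), with 82.3% of genes called lower and a median of -1.50.

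From GV to GV3h the 3 loci were called higher in neither genotype in the fit of all 6 groups. Control oocytes differed by 0.38 for AY036118 per gene count (edgeR adjusted p = 0.350) and by 0.63 per ERCC count (adjusted p = 0.241), the latter called when the fit held only these 2 groups (adjusted p = 0.0383). Called higher in controls were 1.14% of genes per gene count and 0.38% per ERCC count. Dis3 cKO oocytes had less of each per gene count: AY036118 differed by -0.79, Gm42418 by -0.77 and CT010467.1 by -0.67 (edgeR adjusted p = 7.2e-05, 9.86e-05 and 0.000312), and 9.88% of genes were called lower. Per ERCC count the AY036118 difference in Dis3 cKO was -0.33 (edgeR adjusted p = 0.117, with 0.949% of genes called lower). Gm26917 was called in neither genotype, at -4.28 in controls and 1.47 in Dis3 cKO per gene count (edgeR adjusted p = 0.0668 and 0.228). Its values per ERCC count were -3.96 and 1.82 (edgeR adjusted p = 0.199 and 0.104). Some alternative fits called its control difference per gene count and its Dis3 cKO difference per ERCC count.

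The 3 high loci moved almost as 1 signal. Over 71 libraries the deviations of log2(CPM + 1) from the group means correlated with r = 0.9999 between AY036118 and Gm42418 and r = 0.995 between AY036118 and CT010467.1. These points share library and depth, and AY036118 and Gm42418 overlap in position. How reads that match several places or both genes were counted, and whether strand was used, is not given in the sources used here, so the split of counts between these loci is uncertain. Gm42418 collected 1.059 to 1.097 counts per AY036118 count (coefficient of variation 0.780%). CT010467.1 collected 1.438 to 1.895 (5.78%).

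These ratios differed slightly between genotypes. At GV, CT010467.1 per AY036118 count was 1.645 ± 0.0554 in Dis3 cKO (SD, n = 15) against 1.769 ± 0.0713 in control (n = 8), with 8 of 15 Dis3 cKO oocytes below the lowest control (2-sided exact permutation test on log2 ratios, p = 0.000167, Benjamini-Hochberg adjusted over 6 ratio tests p = 0.000502). At GV3h the ratio was 1.780 ± 0.0487 in Dis3 cKO against 1.739 ± 0.0110 in control (exact permutation test, adjusted p = 0.0449). Gm42418 per AY036118 count was 1.0706 against 1.0773 at GV (exact permutation test, adjusted p = 0.0165) and 1.0879 against 1.0758 at GV3h (adjusted p = 0.000502), where 13 of 16 Dis3 cKO oocytes lay above the highest control. At MII neither ratio passed the threshold (exact permutation test, adjusted p = 0.473 for Gm42418 and 0.455 for CT010467.1). Without MII control egg 1, which had the lowest CT010467.1 ratio of 1.438, the MII difference of the CT010467.1 ratio was -0.041 (log2, exact permutation test, adjusted p = 0.0113).

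**Figure D3:**
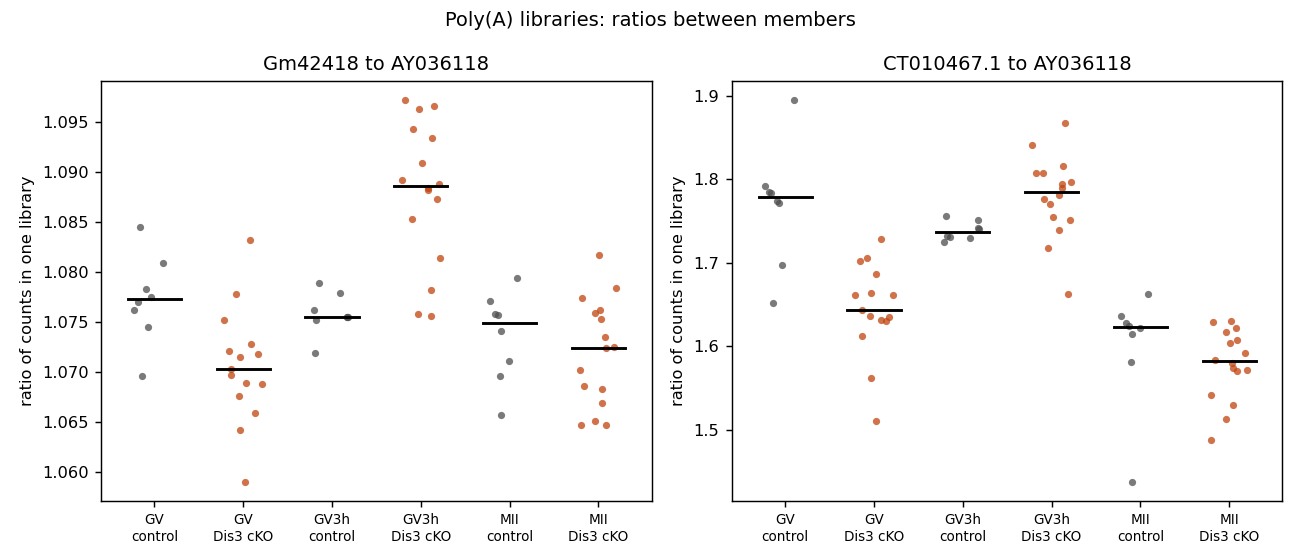
Ratio of Gm42418 counts and of CT010467.1 counts to AY036118 counts in each of 71 poly(A) libraries by stage and genotype (points are libraries, bars are group medians; the axes do not start at 0). At GV3h the Gm42418 ratio is higher in Dis3 cKO (mean 1.0879 against 1.0758), and at GV the CT010467.1 ratio is lower in Dis3 cKO (mean 1.645 against 1.769).

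Gm26917 did not follow the other 3. Its deviations correlated with those of AY036118 at r = -0.16 over 71 libraries. Most libraries held either many or few counts: 21 libraries held 100 CPM or more, 48 held under 20 CPM and 2 lay between, at levels chosen after the values were seen. Among GV controls, oocytes 2, 3 and 6 held 512, 451 and 524 CPM and the other 5 held 5.78 CPM or less. Among GV Dis3 cKO oocytes 5 of 15 reached 100 CPM, up to 2333 CPM (oocyte 8), and the group median was 14.98 CPM. The GV log2 difference of 0.62 had an SE of 1.03 and was not called (edgeR adjusted p = 0.731).

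The clear difference was at GV3h. The 8 control oocytes ran from 0.234 to 52.6 CPM (median 1.89). Dis3 cKO ran from 1.59 to 1694 CPM (median 971), and 13 of 16 held 499 CPM or more, above all controls, while oocytes 1, 10 and 14 held 10.4, 17.4 and 1.59 CPM and overlapped the controls. Gm26917 was higher by 6.37 on the log2 scale (SE 1.43, edgeR adjusted p = 0.000243, against 22.9% of genes called higher) and by 6.16 per ERCC count (adjusted p = 0.00102, against 17.5%). Without control oocyte 6, which held the 52.6 CPM, the difference per ERCC count was 7.97 (adjusted p = 0.000247). An exact permutation test on log2(count + 1 per ERCC count) gave an unadjusted p = 0.000136. The Dis3 effect at GV3h minus that at GV was 5.75 per gene count (edgeR interaction term, adjusted p = 0.0357) and 5.78 per ERCC count, which was not called (adjusted p = 0.0582). The call per gene count was lost without GV3h control oocyte 1 (5.60, adjusted p = 0.0627). Per ERCC count a call was gained without GV3h control oocyte 6 (7.60, adjusted p = 0.0182) and without GV control oocyte 8 (5.97, adjusted p = 0.0408).

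MII eggs held little Gm26917 in either genotype. Controls had 0 counts in 5 of 8 eggs. Control egg 3 held the highest level, 14.6 CPM, and the next control egg held 0.349 CPM. Dis3 cKO eggs had 0 counts in 3 of 16, a median of 1.62 and a highest level of 10.7 CPM. No fit without control egg 3 was run, and the 2 tests of the difference between genotypes disagreed. By edgeR it was not called per gene count (log2 -0.07, SE 1.37, adjusted p = 0.976) or per ERCC count (-0.02, SE 1.26, adjusted p = 0.995). On log2(count + 1 per ERCC count) the Dis3 cKO mean was higher by 2.23 (2-sided exact permutation test, unadjusted p = 0.0253). Against GV oocytes Gm26917 was lower in MII eggs of controls (fitted log2 difference -6.27, edgeR adjusted p = 0.000299) and of Dis3 cKO (-6.96, adjusted p = 1.2e-07), where 35.8% and 38.5% of all genes were called lower. Per ERCC count the fitted differences were -8.33 in controls and -8.72 in Dis3 cKO (edgeR adjusted p = 1.18e-05 and 2.89e-09). On that scale 87.5% and 82.3% of all genes were called lower. These fitted values depend on counts near 0.

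The genes whose levels varied most like AY036118 between oocytes of 1 group were sought among 8898 genes with a mean of 10 CPM or more, by Pearson's r of deviations of log2(CPM + 1) from group means over 71 libraries. They were Lars2 (mitochondrial leucyl-tRNA synthetase, r = 0.746), Gm15564 (0.714), Arnt (a partner of the aryl hydrocarbon receptor, 0.517), Mir6236 (0.503) and Tapt1 (0.478), against a median of -0.01 over all genes compared. Lars2 and Gm15564 were also among the rRNA and structural RNA genes listed below. For Gm26917, a search added after its values were seen gave Spcs3 (a signal peptidase subunit, r = 0.781), Prickle2 (0.771), Lcp1 (plastin, an actin-bundling protein, 0.759), Gbp7 (a guanylate-binding protein, 0.757) and Cct6a (a chaperonin subunit, 0.745).

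A list of 191 other rRNA and small structural RNA genes also holds Gm15564 and the protein-coding gene Lars2. Of these, 5 genes passed the filter on low counts in poly(A), and in GV Dis3 cKO these 5 were called higher per gene count, against 13.6% of all genes: Rn7sk (7SK RNA, which holds the elongation factor P-TEFb inactive) by 1.87 (log2), the mitochondrial rRNAs mt-Rnr1 and mt-Rnr2 by 1.18 and 1.13, Gm15564 by 0.70 and Lars2 by 0.55 (edgeR adjusted p = 3.88e-05, 9.46e-07, 7.56e-06, 0.00143 and 0.00189). Their median was 1.13, against 0.04 over all genes. Per ERCC count Rn7sk, mt-Rnr1 and mt-Rnr2 were called (1.57, 0.85 and 0.80), and Gm15564 and Lars2 were not (0.38 and 0.25), against 7.27% of all genes. At GV3h, 2 of 5 were higher against 22.9% of all genes, mt-Rnr1 by 0.74 and Rn7sk by 1.03 (edgeR adjusted p = 0.000677 and 0.0107), and Gm15564 and Lars2 stood at -0.09 and 0.02. The same 2 were called per ERCC count (0.70 and 1.04). At MII 2 of 5 were lower per gene count against 14.8% of all genes, Lars2 at -0.47 and Gm15564 at -0.39 (edgeR adjusted p = 0.00319 and 0.0464), and the other 3 were not called. Per ERCC count other genes were called at MII: Lars2 and Gm15564 stood at -0.12 and -0.06 and were not called, and mt-Rnr1 was higher by 0.57 (edgeR adjusted p = 0.00816), where 37.6% of all genes were called higher. In control MII eggs against GV oocytes the 5 genes were higher per gene count (0.73 to 1.82, against 22.7% of all genes), and per ERCC count 3 were lower, against 87.5% of all genes (Lars2 at -1.13, Gm15564 at -1.11 and mt-Rnr1 at -0.83) and the other 2 were not called.

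Counts of called genes that make and process rRNA depended on the scale. Of 20 genes of Pol I transcription, 1 was higher and 1 lower in GV Dis3 cKO, 5 and 5 at GV3h, and 9 and 5 at MII (edgeR, per gene count), with medians of 0.06, -0.07 and 0.55 (log2). Over all genes 13.6%, 22.9% and 27.3% were called higher and 8.33%, 15.7% and 14.8% lower. Per ERCC count 0 Pol I genes were higher and 4 lower at GV, 4 and 3 at GV3h, and 11 and 1 at MII, where 7.27%, 17.5% and 37.6% of all genes were called higher and 13.3%, 10.6% and 4.31% lower. At GV3h Ttf1 (a termination factor of Pol I) and Ubtf (an activator of rRNA gene transcription) were higher by 2.33 and 1.89, and Polr1a, the largest Pol I subunit, was at -0.69 (edgeR adjusted p = 2.22e-05, 8.25e-09 and 0.00265). At MII Polr2l (a subunit shared by the nuclear RNA polymerases) and Taf1c (a subunit of the Pol I selectivity factor) were higher by 2.68 and 2.38, and Polr1b and Polr1a, the large Pol I subunits, were at -1.16 and -1.03 (edgeR adjusted p = 9.35e-07, 0.00667, 0.0130 and 8.68e-06). Of 46 tested genes of pre-rRNA modification and processing, 3 were higher and 11 lower at GV, 7 and 14 at GV3h, and 9 and 12 at MII, with medians of -0.13, -0.24 and -0.04. Per ERCC count 0 were higher and 15 lower at GV, 5 and 9 at GV3h, and 11 and 2 at MII. The processing genes with the largest rise were Mdn1 (2.72) and C1d (2.20) at GV3h and Imp3 (1.73) and Nob1 (1.54) at MII. Dkc1, the pseudouridine synthase dyskerin, was lower at all 3 stages per gene count (-0.70, -0.78 and -1.01).

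In RiboMinus libraries of adult GV oocytes CT010467.1 was lower in Dis3 cKO. Its lowest, median and highest levels were 1080, 1275 and 1797 CPM in 8 controls and 548, 761 and 1015 CPM in 8 Dis3 cKO oocytes. The groups did not overlap. How many of all genes separated groups in this way was not counted, here or at p20. The difference was -0.90 on the log2 scale, a fold of 1.87 (SE 0.13, edgeR adjusted p = 7.8e-05), in a contrast where 12.4% of genes were called lower and 15.7% higher. This call was lost when counts were summed per title tag, as given below (edgeR adjusted p = 0.119). Per 1000 ERCC counts controls ran from 411 to 712 (median 547) and Dis3 cKO from 131 to 295 (median 180), again with no overlap. That difference was -1.48 (SE 0.18, edgeR adjusted p = 7.94e-06), with 40.1% of genes called lower and the median gene at -0.52. The granulosa or cumulus cell markers summed to a mean of 37.1 CPM in adult Dis3 cKO against 47.3 in control, and their part in this result was not tested. Ribosomal RNA was removed from RiboMinus libraries, and how much was left in each is not given. CT010467.1 collects rRNA-like reads, so its counts may also depend on this removal. The part of the removal in the adult and p20 differences was not tested. The poly(A) GV libraries had shown the opposite sign for this locus per gene count (0.61), and the 2 assays were not compared by a test.

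In the oocytes labelled p20, CT010467.1 was called lower in Exosc10 cKO and dcKO, and the difference in Dis3 cKO did not pass the threshold on either scale. Controls ran from 1541 to 2457 CPM (median 1860). Dis3 cKO ran from 356 to 1740 CPM (median 792), with 6 of 8 below the lowest control and oocytes 1_1 and 2_4 at 1688 and 1740 CPM inside the control range. Exosc10 cKO ran from 151 to 1397 CPM (median 669) and dcKO from 304 to 1132 CPM (median 588), and in both all 8 oocytes lay below the lowest control.

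The summed level of the 8 granulosa or cumulus cell markers had means of 62.3 CPM in p20 controls, 64.3 in Dis3 cKO, 61.8 in Exosc10 cKO and 35.3 in dcKO, and its part in the dcKO result was not tested.

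The differences from control were -0.97 in Dis3 cKO (log2, SE 0.33, edgeR adjusted p = 0.0679), -1.48 in Exosc10 cKO (SE 0.33, adjusted p = 0.00370) and -1.68 in dcKO (SE 0.34, adjusted p = 7.71e-05), and these 3 comparisons share their control libraries. Genes called lower were 3.76% in Dis3 cKO, 3.5% in Exosc10 cKO and 27.1% in dcKO. The Dis3 cKO difference was not called here. Its adjusted p ran from 0.0159 (a fit of its 2 groups only, -0.96) to 0.288 (counts summed per title tag, -1.02) over the alternatives, and was 0.0302 without Dis3 cKO oocyte 2_4 (-1.15) and 0.116 without control oocyte 1_1 (-0.92), all by edgeR. The differences of dcKO from Dis3 cKO (-0.71, SE 0.33, edgeR adjusted p = 0.0688, with 25.5% of genes called lower) and from Exosc10 cKO (-0.20, SE 0.33, adjusted p = 0.642, with 25%) did not pass the threshold.

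Per ERCC count the order was the same. Medians per 1000 ERCC counts were 2363 in control, 915 in Dis3 cKO, 876 in Exosc10 cKO and 584 in dcKO. The log2 differences were -1.20 (edgeR adjusted p = 0.0584), -1.43 (adjusted p = 0.0382) and -1.66 (adjusted p = 0.00107), with 5.31%, 0.944% and 20.4% of genes called lower. The Exosc10 cKO call was lost without control oocyte 1_1 (-1.35, adjusted p = 0.0818) and without Exosc10 cKO oocyte 2_3 (-1.27, adjusted p = 0.0752). A replicate block and sums per title tag, both given below, also ended this call. Exact permutation tests of the values per ERCC count gave unadjusted p = 0.000311, 0.000311 and 0.000155 for the 3 mutants. The last is the smallest that 12870 regroupings can give. These tests regrouped single oocytes without regard to the title tags.

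The RiboMinus titles carry 2 tags per group with 4 oocytes each, and the labels do not say what a tag stands for. Within Exosc10 cKO the tag 1 oocytes had a mean of 995 ± 340 CPM (SD, n = 4) and the tag 2 oocytes 445 ± 264 CPM. In dcKO the means were 454 ± 156 and 899 ± 244 CPM, in Dis3 cKO 1051 ± 629 and 962 ± 537 CPM, and in controls 2102 ± 301 and 1808 ± 306 CPM. Every mutant tag mean lay below both control tag means. In adults the 2 control tags had means of 1221 and 1481 CPM and the 2 Dis3 cKO tags 817 and 715 CPM. With counts summed per tag, leaving 2 sums a group, the adult call was lost per gene count (-0.94, edgeR adjusted p = 0.119) and kept per ERCC count (-1.51, adjusted p = 0.0190). The Exosc10 cKO call was lost on both scales (-1.52 and -1.48, adjusted p = 0.124 and 0.160), and the dcKO call was kept on both (-1.72 and -1.70, adjusted p = 0.00876 and 0.00967). In p20 Dis3 cKO the differences were -1.02 and -1.36 and not called (edgeR adjusted p = 0.288 and 0.173).

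**Figure D4:**
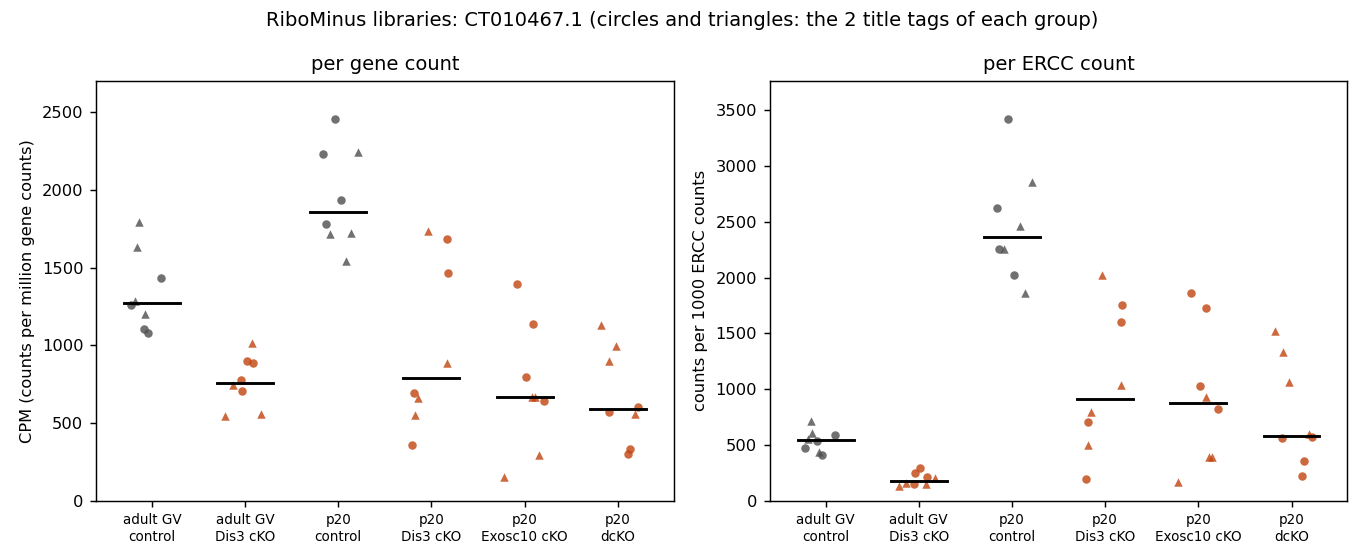
CT010467.1 in 48 single-oocyte RiboMinus libraries, in CPM and in counts per 1000 ERCC counts (points are libraries, circles and triangles the 2 title tags of a group, bars are group medians). Adult Dis3 cKO oocytes lie below all adult controls on both axes, and p20 dcKO oocytes lie below all p20 controls on both.

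Adult and p20 controls differed by -0.50 for CT010467.1 per gene count (log2, SE 0.29, edgeR adjusted p = 0.238, with 10.4% of genes called lower). The 2-group fit called this difference (-0.52, adjusted p = 0.00188). Per ERCC count adult oocytes were lower by 2.19 (-2.19, edgeR adjusted p = 3.36e-07), and 85.7% of genes were called lower with a median of -1.69. Whether adult and p20 libraries were made in 1 experiment is not stated, so age and library preparation cannot be told apart. The Dis3 effect in adult oocytes minus that at p20 was 0.05 per gene count (SE 0.41, edgeR adjusted p = 0.964) and -0.28 per ERCC count (SE 0.49, adjusted p = 0.821), neither past the threshold, where 5.34% of genes were called higher per gene count and 1.49% lower per ERCC count.

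Levels of CT010467.1 varied between RiboMinus oocytes most like those of Cd164l2 (r = 0.760), Gatad2a (a subunit of the NuRD chromatin complex, 0.759), Derl3 (0.698), Nup214 (a nucleoporin, 0.695) and Brpf3 (0.677), over 48 libraries and 8298 genes. Of the other rRNA and structural RNA genes, 13 were tested in adult RiboMinus libraries. Rpph1, the RNA of RNase P, was higher in Dis3 cKO by 1.61, mt-Rnr2 by 0.76 and mt-Rnr1 by 0.68, and Lars2 was at -0.90 (per gene count, edgeR adjusted p = 0.000472, 0.00523, 0.0197 and 0.000168). Per ERCC count 1 was higher, Rpph1 at 1.102, and 3 were lower, Lars2 at -1.41, n-R5s33 at -1.26 and n-R5s175 at -2.07 (edgeR adjusted p = 0.0112, 7.01e-05, 0.0363 and 0.0108), while mt-Rnr1 and mt-Rnr2 stood at 0.02 and 0.11 and were not called. Also tested and called on neither scale were n-R5s28, n-R5s193, n-R5s151, Rn7s6 and Rn7sk (-0.18, -0.06, -0.48, 0.71 and 0.24 per gene count) and n-R5s136 and Rmrp. In p20 oocytes 7 were tested, and in Dis3 cKO the one nearest to the threshold was Lars2 at -0.52 (edgeR adjusted p = 0.0849). Rmrp, the RNA of RNase MRP, which cuts pre-rRNA, was higher by 1.65 in Exosc10 cKO and by 1.85 in dcKO (edgeR adjusted p = 0.0184 and 0.000824). Lars2 was at -0.95 and -1.19 in these groups, and n-R5s136, a copy of the small 5S-type rRNA, at -1.45 and -1.98 (adjusted p = 0.000840, 3.05e-06, 0.00655 and 2.2e-05). In dcKO Rpph1 was also higher (1.23) and mt-Rnr2 lower (-0.42, adjusted p = 0.000228 and 0.0310). Per ERCC count the 5 calls held in dcKO, and in Exosc10 cKO n-R5s136 was called (-1.51) and Rmrp and Lars2 were not (1.56 and -0.91, edgeR adjusted p = 0.0783 and 0.0740). Of 20 Pol I genes 4 were higher and 2 lower in adult Dis3 cKO per gene count, 2 were lower in Exosc10 cKO, and 8 and 6 were higher and lower in dcKO. Of 47 processing genes 6 and 6, 1 and 2, and 16 and 15 were higher and lower in these groups. Of all genes tested, 15.7%, 3.95% and 26.6% were called higher there and 12.4%, 3.5% and 27.1% lower. Per ERCC count 0 Pol I genes were higher and 6 lower in adult Dis3 cKO, 0 and 0 in Exosc10 cKO, and 7 and 5 in dcKO. For processing genes these counts were 0 and 26, 0 and 0, and 9 and 8. Of all genes 4.56%, 1.35% and 17.8% were called higher and 40.1%, 0.944% and 20.4% lower on that scale.

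The chromatin peak lists covered the chromosome 17 locus. At least 1 peak overlapped Gm42418 in 16 of 21 lists. DNA reads of the repeated rRNA genes may also be placed at this locus, and the IgG samples were not compared. The part of either in the signal at Gm42418 was not tested. In all 6 control H3K27me3 lists a single peak of 5824 to 6392 bases covered the whole of Gm42418. Its maximum signal, the authors' own value, was 128, 1023 and 252 in the 3 adult GV control lists and 241, 320 and 304 in the 3 p20 control lists, and 1 to 3 peaks of each list had a higher maximum. In adult Dis3 cKO the peak had nearly the same extent (5840 to 5842 bases) with maxima of 37, 44 and 61, and 6 to 15 peaks of the list were higher. In p20 dcKO 2 peaks covered 69.3% to 89.0% of Gm42418, and the maximum of the peak with the largest total signal was 22, 9 and 7, with 89, 14344 and 22972 peaks of the list higher. In dcKO list 2 that peak lay mostly outside the gene (23.5% of it inside), and the other peak had a maximum of 14. In the single-peak lists 28.9% to 31.7% of the peak lay inside Gm42418, so a maximum need not lie in the gene. Mutant and control values did not overlap at either age, and how many other peaks separated the lists in this way was not counted. The median maximum over all peaks of a list was 10, 4 and 11 in the adult control lists against 4, 5 and 5 in adult Dis3 cKO, and 6 in each p20 control list against 5, 4 and 4 in dcKO. The mutant lists also held more peaks (224934 to 276316 against 87394 to 202628 in adults, and 244827 to 299716 against 151535 to 159895 at p20), and the part of these list-wide differences in the signal at Gm42418 was not tested.

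Of the 50274 bases of AY036118, H3K27me3 peaks covered 1.00% to 4.10%. Pol II peaks over Gm42418 were found in 0 of 3 adult control lists, 2 of 3 p20 control lists and 2 of 3 adult Dis3 cKO lists. They were short, covering at most 35.0% of the gene, with maxima of 10 to 26. Among adult lists the number of peaks moved with this: the control lists held 19697 to 35843 peaks and the Dis3 cKO list with no peak there 30311, while the Dis3 cKO lists with one held 88697 and 122606. Among p20 control lists it did not, since the lists with a peak held 74287 and 82446 peaks and the one without held 80765. The part of list length in the adult counts was not tested.

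**Figure D5:**
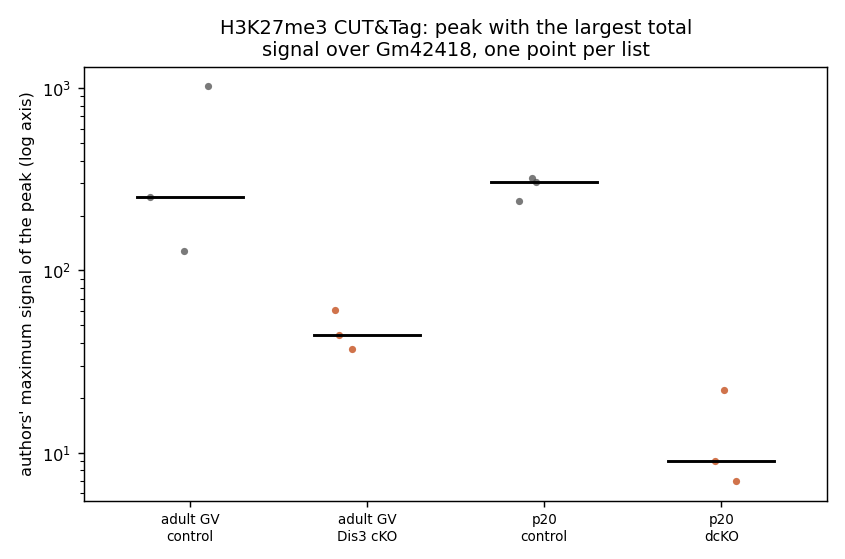
Maximum signal (authors' value, log axis) of the H3K27me3 CUT&Tag peak with the largest total signal over Gm42418, 1 point per peak list, bars at group medians. Reads of the repeated rRNA genes may add to this signal, and IgG samples were not compared. Adult control lists lie at 128 to 1023 and p20 control lists at 241 to 320, above adult Dis3 cKO lists at 37 to 61 and p20 dcKO lists at 7 to 22 (the dcKO point at 9 is a peak with 23.5% of its length in the gene).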

How the data were processed

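For each library the authors deposited raw counts, as whole numbers of reads assigned to each gene ID. The submitters' processing notes name mm10, cutadapt 2.5, STAR 2.7.2a, SAMtools 1.9, HTSeq 0.9.1 and DESeq2 1.24.0. The annotation release, the use of strand and the handling of reads that match several places are not given in the sources used here, and all 3 can change counts at repeated loci. The deposited peak lists, in the column layout of SEACR, give the authors' total and maximum signal per peak for each library, after reads were sampled to an equal number, per the series' design text. An IgG group of 3 samples was not analysed here.

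The quasi-likelihood F test of edgeR 4.0.16 was run on the counts (R 4.3.3; genes kept by filterByExpr, p-values adjusted by Benjamini-Hochberg over all genes tested, threshold 0.05). Values per gene count use TMM scaling. Values per ERCC count use the ERCC count sum as library size. The 6 poly(A) groups shared 1 fit, as did the 2 adult and the 4 p20 RiboMinus groups, and all 6 RiboMinus groups for adult against p20. All 4 members passed the filter in poly(A). SE is the log2 difference divided by the square root of F. Ratios and single values per ERCC count were compared with 2-sided exact permutation tests (scipy 1.17.1), with 1 count added for Gm26917. Alternatives included DESeq2 1.42.0. The fit was also run on simulated data, and no result given here rests on that run. No replicate pair was alike (lowest chi-square per degree of freedom 2.53). Intervals and errors cover the spread between libraries, and reads carry no molecular identifiers. The genes named besides the members were Dis3 and Exosc10, all tested genes of the rRNA list, up to 2 genes per direction of the other lists and the 5 genes most like a member. The members and lists were chosen with earlier results of these data known.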

Additional observations from a re-analysis of the deposited data

Results flagged for a closer look

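Libraries that stood apart from their group by Dixon's test, which chance gives in about 1 of 20 groups, were found 9 times in 36 checks of a locus on 1 scale in a group of 4 to 10 libraries. The checks are not independent, since 3 of the loci move together. GV3h control oocyte 1 had the lowest AY036118 of its group at 5623 CPM (nearest 6999), the lowest Gm42418 at 6061 CPM (nearest 7525) and the lowest CT010467.1 at 9728 CPM (nearest 12120). MII control egg 1 had the highest AY036118 at 803.1 counts per 1000 ERCC counts (nearest 540.4) and the highest Gm42418 at 855.8 (nearest 578.0). For Gm26917, GV3h control oocyte 6 had 52.64 CPM (nearest 15.01) and 10.99 counts per 1000 ERCC counts (nearest 2.37), and MII control egg 3 had 14.6 CPM (nearest 0.349) and 0.6298 counts per 1000 ERCC counts (nearest 0.0161).

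The Dis3 effect per gene count differed between stages by edgeR's interaction term. At GV3h minus GV the difference was 5.755 for Gm26917 (log2), -1.149 for Gm42418, -1.176 for AY036118 and -1.036 for CT010467.1. At MII minus GV it was -1.133 for Gm42418, -1.142 for AY036118 and -1.045 for CT010467.1.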

How the results depend on the processing

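Over all results and alternatives, 680 values kept their direction and their side of the threshold (a count or a value with no test kept its size), 31 lost the call, 17 gained it, 14 changed sign and 5 with no test moved in size. Total gene counts in place of TMM gave -0.32 at GV3h (edgeR adjusted p = 0.122) and -0.34 at MII (adjusted p = 0.0910) for AY036118 in Dis3 cKO, and turned its MII against GV difference in Dis3 cKO to -0.21 (Gm42418 -0.21, CT010467.1 -0.26). With no filter on low counts the AY036118 difference per ERCC count at GV3h was -0.53 (adjusted p = 0.0610), and the CT010467.1 difference in p20 Dis3 cKO was called at -0.98 per gene count and -1.20 per ERCC count (adjusted p = 0.0432 and 0.0280). With only the groups compared in the fit, calls were gained for AY036118 per ERCC count in the GV3h minus GV interaction (-0.96, adjusted p = 0.0375) and in control GV3h against GV (0.63), for CT010467.1 in p20 Dis3 cKO (-0.96 per gene count, -1.20 per ERCC count, adjusted p = 0.0159 and 0.0106) and for adult against p20 controls (-0.52). ERCC counts scaled by TMM gave -0.34 for AY036118 in control MII against GV. The exact permutation test gave -1.49 per ERCC count in p20 Dis3 cKO (unadjusted p = 0.000311) and turned Gm26917 at MII to 2.23 (unadjusted p = 0.0253). DESeq2 gave 0.030 for Gm26917 at MII. Sums per title tag gave -0.94 in adult Dis3 cKO, and -1.52 per gene count and -1.48 per ERCC count in Exosc10 cKO, with 2 sums a group. The causes of these changes were not tested.

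The fits were repeated without 1 library of a group at a time. For each locus this was the library farthest from its group's median in AY036118 (poly(A)) or CT010467.1 (RiboMinus). For a ratio it was the library farthest in that ratio. Per gene count MII Dis3 cKO egg 15 was left out as well. MII control egg 3, the highest of its group in Gm26917, was not left out. AY036118 ranged from -0.49 to -0.44 at GV3h per ERCC count and from -0.41 to -0.32 at MII per gene count. At MII per ERCC count the ranges were -0.0037 to 0.069 (AY036118), -0.0055 to 0.064 (Gm42418) and -0.014 to 0.025 (CT010467.1). Per gene count CT010467.1 in MII against GV Dis3 cKO ranged from -0.037 to 0.044, and Gm26917 at MII from -0.54 to 0.030. CT010467.1 ranged from -1.15 to -0.92 in p20 Dis3 cKO per gene count and from -1.35 to -1.27 in Exosc10 cKO per ERCC count. The log2 CT010467.1 ratio at MII ranged from -0.041 to -0.014. Without MII control egg 1 the MII differences per ERCC count turned to 0.069 for AY036118, 0.064 for Gm42418 and 0.025 for CT010467.1. Without GV Dis3 cKO oocyte 2 the CT010467.1 difference of MII against GV in Dis3 cKO turned to -0.037, and without MII Dis3 cKO egg 4 the Gm26917 difference at MII turned to 0.030.

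The oocyte numbers in the titles were also used as a replicate block. Only 28 of 142 same-numbered poly(A) pairs and 13 of 48 p20 pairs correlated above 0.1, so the numbers were not taken to pair the oocytes. An oocyte lay nearest to its own number in 43 of 284 and 13 of 96 checks, where equal odds for each oocyte of a group would give 25.5 and 12, a hint from the data and not the design. With the replicate block the Exosc10 cKO difference per ERCC count was -1.49 (adjusted p = 0.0552), and Gm26917 turned to 0.96 per gene count and 1.496 per ERCC count at MII and to 0.26 and 1.20 in the MII minus GV interaction. With an overlap of 500 bases, 13 of 21 peak lists had a peak at Gm42418.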

Other observations

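Within the GV3h Dis3 cKO group, the 3 oocytes with little Gm26917 were those with the most AY036118 per gene count. Oocytes 1, 10 and 14 held 10.4, 17.4 and 1.59 CPM of Gm26917 and 6902, 7393 and 8874 CPM of AY036118. The other 13 oocytes held 499 CPM or more of Gm26917 and 3612 to 6841 CPM of AY036118. Per 1000 ERCC counts this was not seen: oocytes 1, 10 and 14 held 921, 891 and 932 counts of AY036118, and oocytes 2, 3 and 16, with much Gm26917, held 1022, 976 and 927. Among GV controls the 3 oocytes with Gm26917 above 100 CPM (2, 3 and 6) held 3141, 5033 and 5552 CPM of AY036118, inside the 2662 to 9069 CPM of the other 5. Among GV Dis3 cKO oocytes the 5 above that level held 5931 to 15140 CPM of AY036118 and the other 10 held 4604 to 13137 CPM. This was seen after the values were known and was not tested.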
